A study of Drosophila melanogaster with 8 samples.

Results

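AGO2 peaks lying in introns or between genes, away from annotated promoters and exons, and present in mock-treated but not in triptolide-treated Drosophila Kc167 cells were examined. Overlapping peaks of the mock lists were merged, and a merged region was kept when it lay on chromosome arm 2L, 2R, 3L, 3R or X and overlapped by at least 1 bp no triptolide peak, no 1500 bp window on either side of a transcription start site (TSS) and no annotated exon. Of 1970 merged mock regions on these arms, 315 passed, of which 226 were intronic and 89 intergenic. They are called mock-only distal regions here. They were chosen by their presence in the mock lists and absence from the triptolide lists, so that their absence after triptolide is the choice itself and carries no test, and 72.2% of all merged mock regions on these arms likewise had no triptolide peak. The regions numbered 39 on 2L, 55 on 2R, 74 on 3L, 82 on 3R and 65 on X, which is between 3.08 regions per Mb on 2L and 4.94 on X of the sequence that the position rule admits.

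The series asked whether AGO2 binds chromatin when transcription is blocked. AGO2 binding was assayed by ChIP-seq, the sequencing of chromatin immunoprecipitated with an antibody, in Kc167 cells, a female line derived from embryonic haemocytes, the blood cells of the fly. Cells received triptolide, a small molecule that blocks initiation by RNA polymerase II, at 10 µM for 60 min, or a mock treatment. Groups follow the treatment label and the titles, since the treatment protocol in the labels names triptolide for every sample, those labelled mock included. Each treatment had 2 immunoprecipitations with an antibody to AGO2 and 2 inputs, and no label says whether the replicates came from separate cultures, so the spread between them may be technical. Both treatments used this 1 line. On the main arms the triptolide lists held 5472 and 5773 peaks and the mock lists 1026 and 1885. Read numbers are unknown, so a region can be missing from a list because of depth as well as binding.

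AGO2 is the Argonaute protein that carries small interfering RNAs in the RNA interference pathway of flies, and part of it is found in the nucleus on chromatin. Introns and intergenic sequence hold enhancers, silencers and alternative promoters, and in flies many such elements carry repeats of GAGAG, which is bound by GAGA factor (the product of Trl) and by the BTB protein Pipsqueak. GAGA factor opens chromatin and is found at promoters with paused polymerase and at Polycomb response elements.

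Sequences around the AGO2 summit are shown for regions on which the results turn, so that the repeats counted further on can be seen. Each is 200 bp long, centred on the summit of the region's best-ranked peak, read on the forward strand of the Release 6 (dm6) RefSeq assembly, with GAGAG or its complement CTCTC in capitals. The region in Raf, which encodes the kinase that couples Ras to the MAP kinase cascade, had the highest deposited fold of all mock-only distal regions in mock replicate 1 and, to the rounding used, shared the highest in mock replicate 2, and lay at chrX:2317541-2317740 with 8 GAGAG counted at every start. The regions in Unc-76 (chrX:2083727-2083926, 7 GAGAG), skd (chr3L:21023370-21023569, 7 GAGAG) and lncRNA:bxd (chr3R:16764059-16764258, 4 GAGAG) followed among those with the best ranks in both lists. A region from ftz-f1, at chr3L:18757213-18757412 with 5 GAGAG, comes from a gene that held several. It is the lowest ranked of the 4 ftz-f1 regions in both lists, and the best ranked of them had 0 GAGAG in its 200 bp and 3 in 300 bp. Among regions not shown, those in B4 and 2 in ush also had 0 in the 200 bp. The windows in ush (chr2L:516499-516698, 6 GAGAG) and Eip74EF (chr3L:17573988-17574187, 2 GAGAG) come from a haemocyte regulator and an ecdysone-induced gene. The last, near CG43336 at chr3R:15651069-15651268, is shown because it had a peak in both mock lists and no GAGAG.
Raf: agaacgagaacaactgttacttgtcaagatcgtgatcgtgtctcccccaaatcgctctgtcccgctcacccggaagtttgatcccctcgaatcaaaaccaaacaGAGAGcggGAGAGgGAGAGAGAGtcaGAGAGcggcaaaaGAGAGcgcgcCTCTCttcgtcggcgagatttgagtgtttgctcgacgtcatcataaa
Unc-76: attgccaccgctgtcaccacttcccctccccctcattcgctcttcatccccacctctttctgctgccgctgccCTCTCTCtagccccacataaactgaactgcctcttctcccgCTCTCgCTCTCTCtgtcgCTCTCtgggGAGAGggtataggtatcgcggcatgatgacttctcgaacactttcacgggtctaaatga
skd: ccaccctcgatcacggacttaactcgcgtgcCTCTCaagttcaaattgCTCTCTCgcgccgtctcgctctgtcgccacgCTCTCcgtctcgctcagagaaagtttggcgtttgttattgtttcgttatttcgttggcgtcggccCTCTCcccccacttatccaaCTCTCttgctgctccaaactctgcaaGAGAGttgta
bxd: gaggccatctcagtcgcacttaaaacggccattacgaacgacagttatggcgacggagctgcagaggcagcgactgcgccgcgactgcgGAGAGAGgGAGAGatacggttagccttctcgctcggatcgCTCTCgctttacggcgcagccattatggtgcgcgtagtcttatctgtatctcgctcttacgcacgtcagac
ftz-f1: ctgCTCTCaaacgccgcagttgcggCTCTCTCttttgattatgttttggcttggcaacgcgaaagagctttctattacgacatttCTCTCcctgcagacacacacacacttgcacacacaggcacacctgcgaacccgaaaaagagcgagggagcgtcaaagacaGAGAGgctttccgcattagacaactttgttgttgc
ush: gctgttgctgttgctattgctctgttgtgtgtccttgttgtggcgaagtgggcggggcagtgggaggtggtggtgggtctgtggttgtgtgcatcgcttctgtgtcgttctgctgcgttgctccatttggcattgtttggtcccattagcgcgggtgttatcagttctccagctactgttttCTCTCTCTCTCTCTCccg
Eip74EF: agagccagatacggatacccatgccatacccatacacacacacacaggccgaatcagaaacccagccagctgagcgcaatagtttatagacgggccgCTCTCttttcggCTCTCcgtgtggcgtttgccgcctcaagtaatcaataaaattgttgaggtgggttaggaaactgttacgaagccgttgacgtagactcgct
CG43336: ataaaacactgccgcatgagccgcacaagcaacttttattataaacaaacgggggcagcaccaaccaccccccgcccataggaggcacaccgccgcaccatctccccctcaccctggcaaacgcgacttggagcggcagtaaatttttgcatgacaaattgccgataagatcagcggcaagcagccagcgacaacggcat

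Most mock-only distal regions rested on a single list. A peak in both mock lists was present for 102 of the 315 (32.4%, Wilson 95% interval 27.5 to 37.7%), 199 were found in mock replicate 2 only and 14 in mock replicate 1 only. The count thus rests largely on mock replicate 2, and the rule gave 124 regions without it. Among mock-only regions at promoters 476 of 1070 were in both lists (44.5%, 41.5 to 47.5%), and among all merged mock regions the share was 46.6%. Intronic regions were in both lists in 34.1% of cases and intergenic ones in 28.1%, with intervals that overlap (28.2 to 40.5% and 19.8 to 38.2%). The summits of the 2 replicates lay a median of 25 bp apart in the 102 shared regions, and 97 of them within 100 bp, against a median of 23.5 bp in the shared promoter regions.

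The deposited fold, which compares the immunoprecipitated signal at the summit with its local background, was close to that at promoters. Mock-only distal peaks had a median fold of 4.72 in mock replicate 1 (range 2.43 to 11.8, 116 peaks) and of 4.42 in mock replicate 2 (range 1.91 to 19.6, 301 peaks). Mock-only promoter peaks had medians of 4.75 and 4.67 in the same lists. The ratio of the medians, distal over promoter, was therefore 0.99 in replicate 1 and 0.95 in replicate 2. Within each list the distal peaks ranked somewhat lower by q-value, at a median percentile of 40.6 and 37.5, against 46.1 and 50.6 for promoter peaks. Regions found in both lists had a median fold of 6.03 in mock replicate 2, and those found in that list alone 4.06. In mock replicate 1 the corresponding medians were 4.76 and 4.5. The merged regions were 295 to 1144 bp wide, with a median of 409 bp. These values chose or rank the regions and are given without a test.

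Among the regions best ranked in both lists, Raf and skd had the highest intronic folds. The Raf region at chrX:2317347-2317939 had a fold of 11.8 in mock replicate 1 and 19.6 in mock replicate 2 and lay in the second of 6 introns, 4624 bp from the nearest TSS. A further Raf region, at chrX:2305810-2306311 in the same intron, had 5.67 and 9. The region in skd, which encodes a Mediator subunit (Med13), had folds of 9.57 and 12.8, and the region in Unc-76, whose product binds kinesin and is needed for transport in axons, 7.27 and 7.53. These 4 regions stood above the upper quartile of distal peaks (5.85) in mock replicate 2, while the weaker Raf region was just below it in mock replicate 1.

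The other best-ranked intronic regions had folds from 3.99 to 12.5. The region in chn, a zinc finger gene of the peripheral nervous system, had 8.88 in mock replicate 1 and 5.76 in mock replicate 2. In Smr, which encodes a co-repressor of nuclear receptors, the values were 6.43 and 9.95. The ecdysone receptor gene EcR had 3.99 and 6.77 in its intron of rank 3. EcR was thus the only one of the 12 best-ranked regions with a fold below the median of mock-only distal peaks in replicate 1. The region in lncRNA:bxd, a non-coding transcript of the bithorax complex, gave 8.36 and 7.78, that in B4 5.91 and 6.07, and that in CG12769 6.01 and 12.5.

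Intergenic regions ranked lower as a class, at median percentiles of 30.4 and 24 in mock replicates 1 and 2, against 42.7 and 45.2 for intronic ones, but some were among the strongest. The best-ranked region of all lay 27617 bp upstream of IntS3, an Integrator subunit gene, with folds of 7.64 and 14.4. A region 4685 bp upstream of 18w, a Toll family receptor gene, had 8.92 and 19.6, and one 588 bp downstream of mura, a RING finger gene, 5.19 and 6.49. All 3 were higher in mock replicate 2, as were 8 of the 10 best-ranked intronic regions, the exceptions being chn and lncRNA:bxd.

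**Figure D1:**
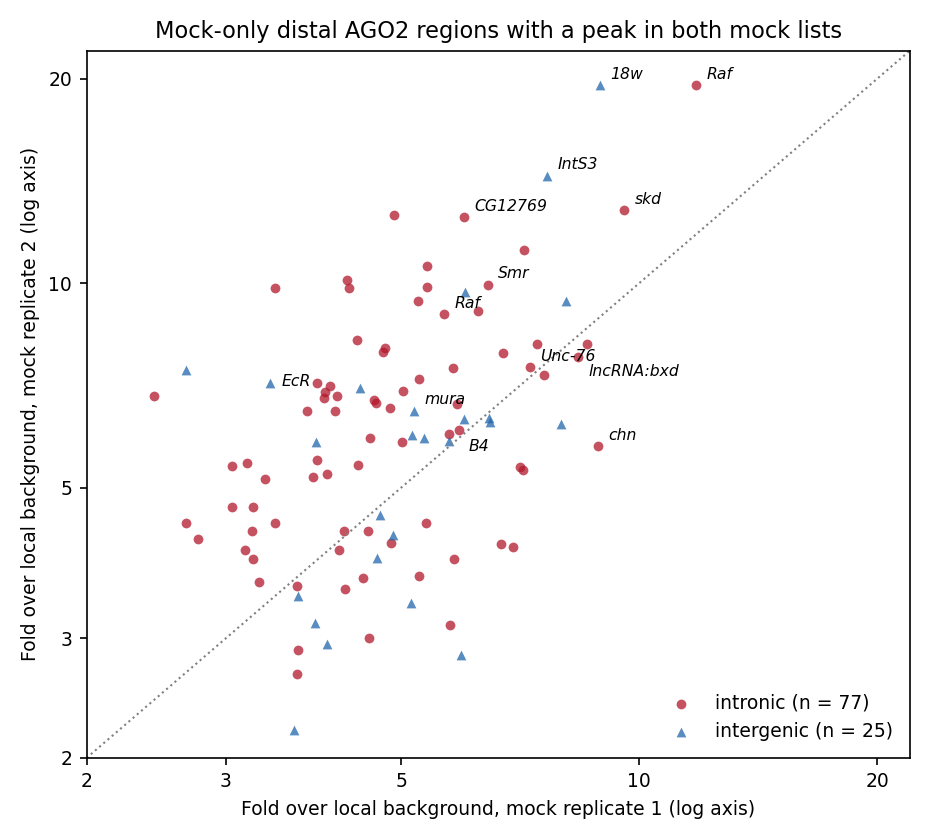
Deposited fold over local background in mock replicate 1 (x axis) and mock replicate 2 (y axis), both on log axes, of the 102 mock-only distal regions with a peak in both mock lists. Red circles are intronic and blue triangles intergenic regions, the dotted line marks equal folds, and the labelled points are the best-ranked regions, of which the upper Raf point reached 11.8 and 19.6.

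GAGAG was the most frequent of the motifs searched, and also the shortest. In the 300 bp around the summit 226 of the 315 regions held GAGAG on either strand (71.7%, 66.5 to 76.4%), as did 89.6% of mock-only promoter regions. All non-overlapping 300 bp tiles that pass the same position rule, 232193 in number, held it in 30.0% of cases, and the 64660 tiles of 45 to 55% GC in 36.8%. Of the 243 regions within that GC range 75.3% held it. Repeats made the contrast wider, since 46.7% of all regions and 3% of all tiles had 3 or more occurrences, counted at every start. In tiles of 45 to 55% GC that share was 4.49%. Both mock-only distal classes had it, at 75.2% of intronic and 62.9% of intergenic regions (intervals 69.2 to 80.4% and 52.5 to 72.2%). A match is a description of the letters and not evidence that a factor was bound.

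Replicate support went along with the number of repeats. Of the 89 regions without GAGAG 13.5% were in both mock lists, of the 79 with 1 to 2 occurrences 21.5%, of the 64 with 3 to 5 occurrences 42.2%, and of the 83 with 6 or more 55.4%. The median fold in mock replicate 2 over the same steps was 3.94, 4.09, 5.33 and 5.51. In mock replicate 1 it was 4.64, 4.26, 5.31 and 4.87, which has no steady order. GAGAG was thus present in 90 of the 102 regions found in both lists (88.2%, 80.6 to 93.1%) and in 126 of the 199 found in mock replicate 2 only (63.3%, 56.4 to 69.7%), with intervals that do not overlap. Regions share their library and their neighbourhood, so these shares carry no p-value.

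The repeats gathered at the summit. In the 102 regions found in both lists the central 100 bp held 255 occurrences, and the 100 bp stretches that end 500 bp to the left and right held 15 and 13. The 213 regions of a single list held 271 in the central 100 bp, against 37 and 28 in the outer stretches. Per 100 regions, the 50 bp bins next to the summit held 128 and 122 occurrences in regions of both lists. In regions of 1 list they held 61 and 66.2. The 50 bp bins of the outer stretches held 2.94 to 10.8 and 3.76 to 11.7 in these 2 sets. The average of all tiles in the same unit was 7.62.

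**Figure D2:**
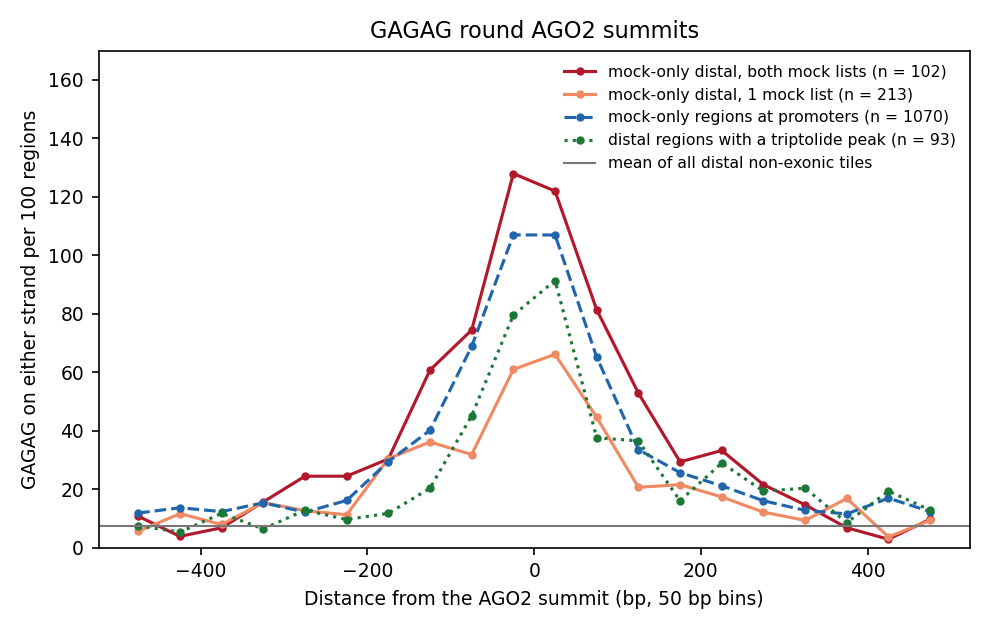
Occurrences of GAGAG on either strand per 100 regions (y axis) by distance from the AGO2 summit in 50 bp bins (x axis), for mock-only distal regions in both lists and in 1 list, mock-only promoter regions and distal mock regions with a triptolide peak. The grey line is the average of all tiles that pass the position rule, 7.62, and each of the 4 curves is highest next to the summit.

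Other short motifs were far rarer, but all were longer than GAGAG, which makes a match less likely by length alone. Region shares here are of all mock-only distal regions, whatever their GC content, while tiles are those of 45 to 55% GC. The CA repeat CACACACA was in 20.6% of regions (16.5 to 25.4%) and in 10.2% of tiles. Among regions of 45 to 55% GC it was in 23%. Relative to the tiles it was raised at least as much as GAGAG, which stood at 75.3% and 36.8%. The GATA site GATAAG, bound by haemocyte GATA factors such as Serpent, was in 14.9% (11.4 to 19.3%) of regions and 9.76% of these tiles, and the E-box CACGTG in 7.3% (4.91 to 10.7%) and 4.82%. Of the remaining motifs, CAGCTG stood at 20% (16 to 24.8%) and 15.6% of tiles, TGANTCA at 6.67% (4.4 to 9.98%) and 4.7%, and the nuclear receptor element AGGTCA at 8.57% (5.96 to 12.2%) and 7.83%. The tile values of the last pair lie within the intervals of the regions. The A tract AAAAAAAA was in 9.84% of regions and 8.65% of tiles, and the Zelda site CAGGTAG in 1.27% and 1.62%. TTCNNNGAA, the STAT site, was in 3.49% (1.96 to 6.14%) of regions and in 6.71% of tiles, and the Su(H) site GTGGGAA in 3.49% and 4.61%. The promoter elements TATCGATA (DRE) and GGTCACAC (Motif 1) were in 0 and 1 regions, and the CTCF core AGGTGGCGC in 1. Motifs were matched letter for letter on both strands, and GAGAG can overlap itself.

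**Figure D3:**
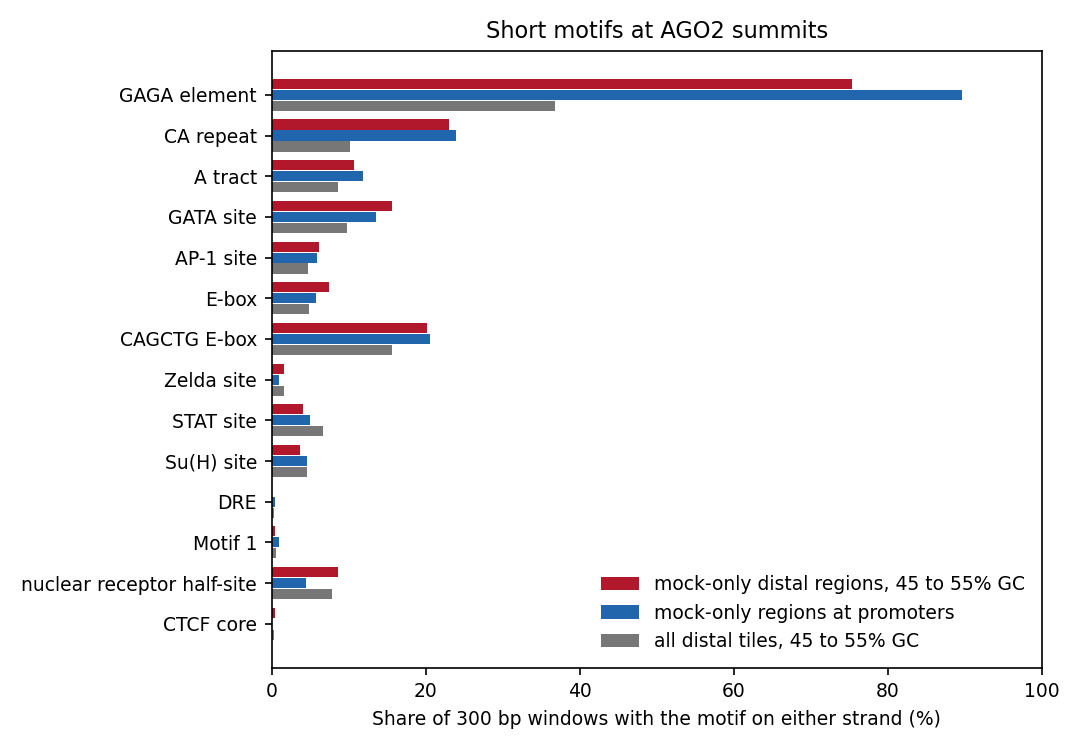
Share of 300 bp windows (x axis, %) that hold each of 14 motifs on either strand (y axis), for mock-only distal regions of 45 to 55% GC, mock-only promoter regions of any GC content and all distal tiles of 45 to 55% GC. GAGAG, labelled GAGA element, reached 75.3% in the distal regions and 36.8% in the tiles, and no other motif exceeded 25% in either.

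The windows were richer in GC than the sequence they were drawn from. The median was 50.7% in mock-only distal regions (quartiles 48 and 53.7%), 50% in mock-only promoter regions and 40.7% in all tiles (quartiles 35.3 and 46%). Distal mock regions that kept a triptolide peak, 93 in number, had a median of 55.3%, and 60.2% of them (50.1 to 69.6%) held GAGAG. These kept regions were in both mock lists in 48.4% of cases (38.5 to 58.4%). GC content also affects recovery of fragments in sequencing, and its part in these values was not tested.

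Within genes, the regions lay in early introns more often than the available sequence did. Of 226 intronic regions 98 were in an intron of rank 1 counted from the 5′ end (43.4%, 37.1 to 49.9%), while such introns held 27.3% of the intronic bases that pass the position rule. Introns of rank 2 held 29.2% of the regions and 27.4% of the bases, those of rank 3 13.7% and 13.1%, and those of rank 4 or more 13.7% and 32.1%. The 77 intronic regions found in both lists were distributed alike, with 44.2% in introns of rank 1 and 9.09% in those of rank 4 or more. Where each region took its lowest rank over all transcripts of the gene, rank 1 held 61.1% of regions and 38.9% of bases. The host introns were long, with a median of 16602 bp.

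**Figure D4:**
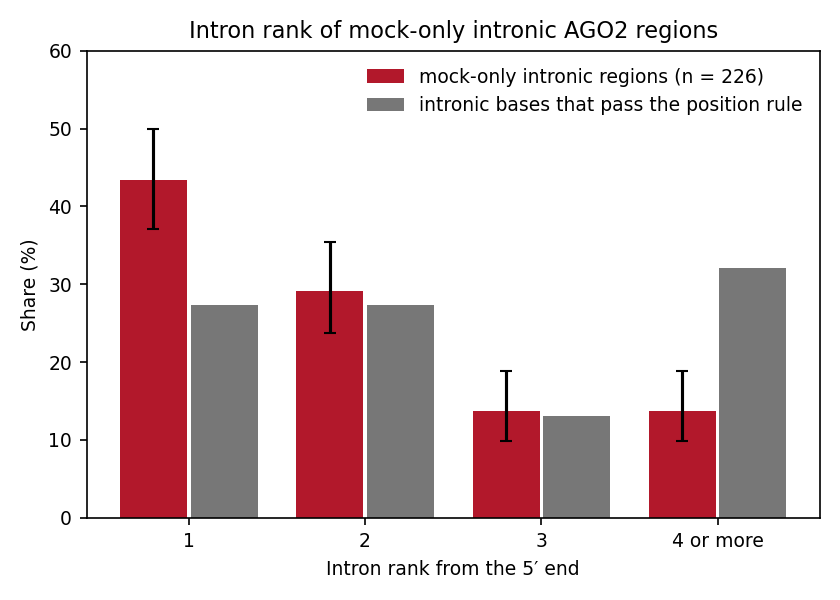
Share (y axis, %) of the 226 mock-only intronic regions (red, with Wilson 95% intervals) and of the intronic bases that pass the position rule (grey) by intron rank from the 5′ end (x axis). Rank 1 held 43.4% of regions and 27.3% of bases, and rank 4 or more 13.7% and 32.1%.

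Summits lay a median of 5219 bp from the nearest TSS (quartiles 2762 and 11498 bp, range 1678 to 229427 bp), while the centres of all tiles lay 7878 bp away (quartiles 3915 and 18203 bp). The share within 5 kb was 47.6% of regions and 33.6% of tiles. Intronic sequence held 0.512 regions per 100 kb and intergenic sequence 0.287. Of the 89 intergenic regions 37 were upstream and 52 downstream of the nearest gene, at a median of 5965 bp. They fell to 74 nearest genes, led by CG43245 with 4 and by hry, the pair-rule repressor hairy, and mir-10404-5 with 3 each. Nearest did not always mean close. The 3 of mir-10404-5 lay 65470 to 121763 bp away and were all in mock replicate 2 only. Those of CG43245 lay 32191, 31424, 2582 and 3156 bp away. A total of 85 regions (27%) were within 10 kb of another one.

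The 226 intronic regions lay in 166 host genes, of which 157 were protein coding, and 7 of the regions lay in 2 overlapping genes. Genes that host or neighbour a region made up 1.28% of the 18046 genes on the main arms. The hosts were long, with a median of 33697 bp against 1649 bp for all genes, and a longer gene offers more sequence that can hold a region. Among the 1026 genes of 20 kb or more, 115 were hosts (11.2%). A mock AGO2 region at the gene's own TSS was present in 96 of 166 hosts (57.8%) and in 9.38% of all genes, and, among genes of 20 kb or more, in 60.9% of hosts and 33.5% of all. Outside Myo81F, long genes with such a promoter region held 1.04 distal regions per 100 kb, and those without one 0.208. In 78 of the 96 hosts (81.2%) at least 1 promoter region had no triptolide peak, and in 56 (58.3%) none of them had, beside 80.8% and 68.9% of the 344 genes of 20 kb or more with a promoter region. Triptolide lists were not empty at these genes, since 139 of the 166 hosts (83.7%) had a triptolide peak elsewhere in the gene or its promoter, beside 79% of all genes of 20 kb or more.

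Genes of the ecdysone response, through which the steroid hormone drives moulting and metamorphosis by a cascade of nuclear receptors, held the most regions of the 12 gene lists examined. Of the 15 listed genes found on the main arms, 10 hosted a region (EcR, Eip74EF, Eip75B, br, ftz-f1, Hr4, Hr39, Eip78C, E23 and tai), with 21 regions in all, 10 of them in both mock lists. These genes had 3.5 regions per 100 kb of admitted sequence, and intronic sequence outside them 0.471. The density was near that of the haemocyte list, at 3.4 from the 4 regions of ush alone, and the EGF receptor list had 2.39. Long genes outside the list that had a mock region at their own TSS had 0.911. This gene list had been chosen with earlier results of these data known, and its density is a description.

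The orphan nuclear receptor gene ftz-f1 hosted 5 regions, 4 of them in both lists. Their folds were 4.85 and 4.15, 4.27 and 10.1, 5.39 and 10.6, and 4.01 and 6.91 in mock replicates 1 and 2, and the other region had 6.31 in mock replicate 2 only. All 5 held GAGAG, and of the 4 in both lists 3 lay in the intron of rank 3 and 1 in that of rank 2. Eip74EF, an ecdysone-induced Ets factor gene, hosted 3 regions with folds of 4.3 and 9.83, 6.26 and 9.1, and 4.15 in mock replicate 2 only. Eip75B, which encodes a haem-binding nuclear receptor, hosted 3 and was nearest to 1 more. Its region in both lists had 7.16 and 11.2, and the others had 5.48, 3 and 4.86 in mock replicate 2. The nuclear receptor genes Hr39 and Hr4 had a region in both lists with 5.89 and 6.64, and 3.05 and 5.38. Hr4 hosted a further region with 6.67 in mock replicate 1 only. In tai, a coactivator of the ecdysone receptor, all 3 regions were in mock replicate 2 only, at 3.87, 5.42 and 4.92. Single regions of br, Eip78C and E23, at 3, 2.63 and 2.73, were in 1 list each and near the bottom of it, at percentiles of 1.56, 2.5 and 2.5. Triptolide peaks were found inside 8 of these genes but at other positions, and inside Hr39 and E23 there was none.

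Several further genes held clusters of regions. Raf hosted 4, all in both lists, with folds of 5.02 and 6.94, 3.91 and 5.49, 5.67 and 9, and 11.8 and 19.6. They lay in the same intron, and a triptolide peak lay in the gene in replicate 1 only. The gene ush, whose product partners GATA factors in haemocytes, hosted 4, of which 3 were in both lists, at 3.25 and 4.68, 3.19 and 5.43, and 4.84 and 6.54. It was the only host among 16 haemocyte genes. psq, which encodes the GAGAG-binding protein Pipsqueak, hosted 4, with 4.65 and 6.66 and 3.46 and 9.83 for those in both lists. tara, a regulator of cell cycle and sleep, hosted 6, more than any other gene but Myo81F, and 2 of them were in both lists, at 4.03 and 5.23 and 4.74 and 7.93. Of these 6 regions 3 had no GAGAG. Other hosts of 3 or 4 regions were skd with 4, and crp, a basic helix-loop-helix factor gene, CG5151, hth, which encodes a homeodomain partner of Hox proteins, and Mnt, an antagonist of Myc, with 3 each. All 3 regions of CG5151 and of hth were in a single list.

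**Figure D5:**
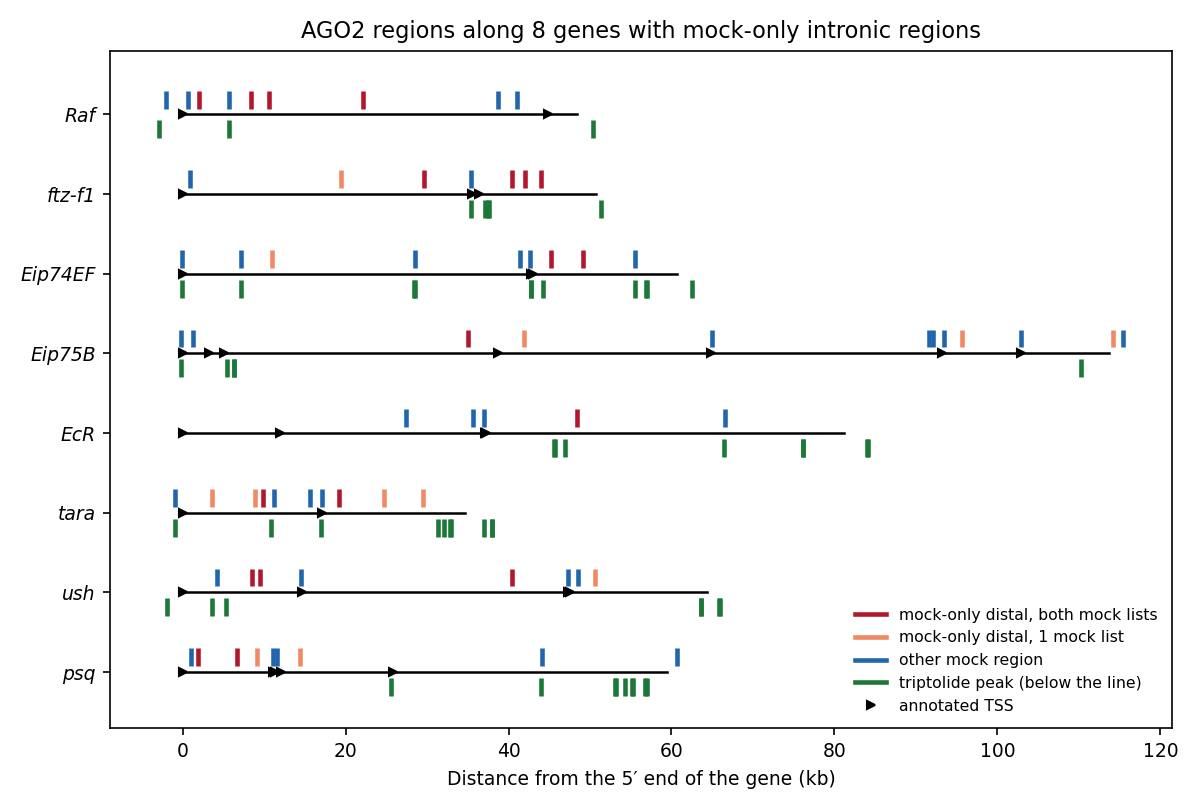
Positions of AGO2 regions along 8 host genes drawn from their 5′ end (x axis, kb), with 1 gene per line and arrowheads at annotated TSSs. Ticks above the line are mock-only distal regions in both lists (red) or in 1 list (orange) and other mock regions (blue), and green ticks below it are triptolide peaks. Raf has 4 red ticks, and triptolide peaks lie elsewhere in the genes.

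The remaining lists held few regions in number, though several had densities above the 0.512 per 100 kb of all admitted intronic sequence. Among all genes of 20 kb or more 11.2% were hosts. BTB transcription factor genes hosted 6 regions in 3 of 12 genes (psq, fru and br), or 1.47 per 100 kb. Of the EGF receptor pathway 2 of 11 genes hosted 3 regions, namely the Ets factor gene pnt, at 2.43 and 6.83 for the region in both lists, and the feedback inhibitor gene sty. Of the Notch pathway the receptor gene N had a region with 7.42 and 8.15 and the coactivator gene mam one with 3.3 and 3.63. Thus 2 of the 9 genes matched by name were hosts, with 0.975 regions per 100 kb. The ligand gene, listed as Dl but annotated as Delta, was missed by the name match and also hosted a region. Its fold was 3.9, in mock replicate 2 only. RNA-binding protein genes, which are very long, hosted 2 regions in 17 genes (Syp and how), or 0.133 per 100 kb. Dad, an inhibitor of Dpp signalling, and the clock gene vri hosted 1 each, which put the Dpp and clock lists at 0.699 and 1.59 per 100 kb. No region was found in the 8 JAK/STAT genes, the 20 adhesion and guidance genes or the 8 RNA interference genes. The adhesion genes offered 923 kb of admitted sequence, but the JAK/STAT genes only 25.4 kb and the RNA interference genes only 2.47 kb.

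The regions of Myo81F had no replicate support. Myo81F, a myosin gene that spans 1965857 bp of 3R next to the centromere, hosted 12 regions and was nearest to 1 more, and none of the 13 was in both mock lists. The 12 of them in mock replicate 2 had folds of 2.87 to 6.12 and percentiles of 0.651 to 24, so that all ranked low in that list. Triptolide lists held 51 and 50 peaks within the same gene. Of 23 regions with a summit over 50 kb from a TSS, 9 had Myo81F as host or nearest gene, and 1 of the 23 was in both lists.

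Annotated transposon insertions overlapped 17 regions (5.4%), beside 11% of all tiles and 7.97% of tiles of 45 to 55% GC. Overlap was taken over the whole merged region, of median width 409 bp, but over 300 bp for tiles. Of the 17, 9 were in both lists. The summit lay outside the insertion in 6 of the 17, among them the Tirant cases below, and inside an insertion in the rest. A Tirant retrotransposon insertion of 8425 bp in skd had a region at each end, with summits 66 bp and 76 bp outside it. Their folds were 4.15 and 6.82 at one end and 9.57 and 12.8 at the other. The strongest Raf region began within the last bases of another Tirant insertion, with its summit 266 bp outside it. Whether Kc167 cells carry these insertions is not known from the files, and reads from repeated copies were removed by the mapping quality filter.

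In whole lists, introns and intergenic sequence held a smaller share of peaks after triptolide. The share was 8.81% and 6.84% in the triptolide lists, against 18.8% and 19.9% in the mock lists (means 7.83 ± 1.39 and 19.4 ± 0.766, SD, n = 2 each). The difference of -11.5 percentage points was larger than the spread between replicates, with p = 0.333 in a two-sided exact permutation test, the smallest value that 2 lists against 2 allow. The fall was mostly intronic, with 4.02% and 2.77% of peaks in introns in triptolide lists against 13.5% and 14.3% in mock lists. Intergenic shares were 4.79% and 4.07% against 5.26% and 5.62%. In number the distal peaks were 482 and 395 in triptolide lists and 193 and 375 in mock lists, so that both triptolide lists held more of them. Intergenic peaks numbered 262 and 235 against 54 and 106. Intronic peaks numbered 220 and 160 against 139 and 269, with no steady order. GAGAG was in 40.0% and 37.2% of distal triptolide peaks, against 78.8% and 70.9% of distal mock peaks. The GC content of their windows moved with it, at medians of 56 and 57.3% in triptolide lists against 52.3 and 51% in mock lists, while tiles of over 55% GC held GAGAG in 37.9% of cases. The median fold of distal peaks was 3.72 and 3.64 in triptolide lists, against 4.88 and 4.46 in mock lists.

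Regions close to a limit of the rule were as follows. Those just inside the TSS window limit, in ced-6, Gmap and Sin3A, lay 1511, 1527 and 1528 bp from a TSS, and the nearest regions left out, at Frl, lncRNA:CR43334 and out, lay 1491, 1487 and 1485 bp away. The gap to the nearest triptolide peak had a median of 7447 bp, was under 1 kb for 32 regions and over 10 kb for 136, and was shortest in Myo81F, at 59 bp, followed by zfh1, at 292 bp. Regions left out by the shortest overlap with a triptolide peak, 1 at Pzl and 2 in Myo81F, shared 14, 57 and 68 bp with it.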

How the data were processed

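Peak lists of the 4 AGO2 immunoprecipitations were used, and the 4 inputs were not analysed by themselves. As labels and methods state, reads had been trimmed (cutadapt 1.10) and mapped to dm6 (Bowtie2), and the authors kept a mapping quality of at least 20, removed duplicates with Picard 2.11.0 and called peaks in each replicate against its input with MACS2 2.1.1.20160309 (versions from the submitters' processing notes). The deposited columns were the score, which is the whole part of 10 times −log10 of the q-value, the fold, the −log10 p-value and q-value, and the summit offset. Read counts were not used, so depth is unknown.

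Classes came from the Ensembl BDGP6.54 annotation without transposons. Percentiles are mid-ranks by q-value within a list. Shares have Wilson 95% intervals, which cover counting error over regions only. Named regions were the 12 best-ranked in both mock lists, the best 3 intergenic ones, hosts of 3 or more regions and hosts on 12 gene lists, of which 1 is not reported here. The regions and lists were chosen with earlier results of these data known. Scripts ran in Python 3.11.15 with SciPy 1.17.1 and were tested on simulated peaks. Alternatives were the TSS window, overlap, q-value, annotation, window width and lists left out.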

Additional observations from a re-analysis of the deposited data

How the results depend on the processing

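Of 93 alternative values of 8 results, 80 stayed within the limits set and 13 moved. The limit for the number of regions was a 1.5-fold change, and for the difference in distal share only its sign. That difference was -20.3 points with a TSS window of 500 bp and -20.5 with a window only downstream of the TSS, against -11.5. These values were still counted as unchanged. Asking for a peak in both mock lists left 102 regions, of which 88.2% held GAGAG, with 45.2% of hosts having a promoter region. Promoter regions then also had to be in both lists, unlike those behind the 57.8% of the main setting. A TSS window of 500 bp gave 485 regions, 50.4% of intronic ones in introns of rank 1 and GAGAG in 78.1%. A window only downstream of the TSS gave 466 regions, within the 1.5-fold limit, with GAGAG in 79%. A 150 bp sequence window gave GAGAG in 60%. The lowest rank over transcripts put 61.1% in introns of rank 1. With 1 list left out in turn the number of regions was 124 (without mock replicate 2) to 353, the ratio of distal to promoter fold 0.942 to 1.02 (above 1 without mock replicate 2), the share of hosts with a promoter region 49.3 to 59.2%, and GAGAG 70.5 to 86.3%. With a replicate block the difference in distal share was -11.5 points (exact permutation p = 0.5). Same-numbered lists were not treated as paired. The replicate differences in fold of the 2 treatments correlated at -0.11 over 142 regions with a peak in all 4 lists. This value cannot show whether same-numbered lists shared a culture or batch. A crossed pairing and leaving out Myo81F were added after the data were seen. The block and the crossed pairing average the same lists, so their difference of -11.5 was fixed in advance. An exact permutation p of 0.5 is also the smallest that either allows. Both are counted among the 80 but could not have moved. The share in both lists has no value without a mock replicate. Regions here are calls of presence, so a missing peak can lie just under the caller's threshold.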
